A study of Mus musculus with 14 samples.

Results

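T-box genes encode transcription factors that share a DNA-binding domain, the T-box, named after the mouse gene T (Brachyury). The data describe those of them that lie at regions whose chromatin accessibility differed between groups of sorted erythro-myeloid progenitors, embryonic blood progenitors of the yolk sac. The genes taken were T, Eomes, Tbx1, Tbx2, Tbx3, Tbx4, Tbx5, Tbx15, Tbx18 and Tbx20, a set of developmental T-box genes that each have at least 1 line in the authors' 6 lists of differing regions. They are 10 of 6687 genes in those lists, and they hold 30 of 9954 listed regions, counted separately in each comparison. Having a line was thus part of the choice, so counts are given below over the whole family of 17 genes. Its other listed genes were Tbr1, Tbx21 and Mga, and Tbx6, Tbx10, Tbx19 and Tbx22 have no line in the lists used here.

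Open chromatin was mapped by ATAC-seq, which cuts accessible DNA with a transposase, on 500 cells per sample, in C57BL/6 embryos at E10.5, per the labels. All embryos carried Ezh2fl/fl, a floxed gene for the catalytic subunit of Polycomb repressive complex 2. The 5 Tie2 KO samples also carried Tie2-CreTg/+, a Cre driven by regulatory sequence of Tek that acts in endothelial cells and in the blood derived from them. The 3 Vav KO samples carried Vav-CreTg/+, active in blood cells. The 3 Tie2 WT samples are labelled wild type, Tie2-Cre+/+, read here as carrying no Cre transgene. The 3 Vav WT samples are named in none of the lists, so Vav KO was set against Tie2 WT, a control of the other Cre line, and line and genotype cannot be told apart there. Ezh2 itself has no line in the lists, so the deletion could not be checked from them.

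T-box factors act early in development, as activators or repressors, in mesoderm, endoderm, heart and limb, and several work in the same fields in overlapping doses. In tissues that do not use them, many T-box genes are kept silent under methylation of histone H3 at lysine 27, the mark that Ezh2 makes. Values of single samples are not part of the lists: depth and the spread between embryos are unknown, and each log2 fold change and adjusted p-value is the authors' own. Nearly every listed region covers a start or lies upstream of it by at most 5 kb, so distant enhancers are not covered. In a bulk sample more cells of one type and more open chromatin per cell cannot be told apart.

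The promoters shown here are 3 that the regions below cover and that of Tbx1, which they miss. They are the 250 bases before the gene start, from RefSeq (GRCm38.p6), with CG dinucleotides in capitals, since CG-rich starts are where Polycomb complexes are known to gather. A RefSeq window at the gene start used in the lists was matched for 5 members, T, Eomes, Tbx1, Tbx18 and Tbx20. The Eomes window lies at chr9:118477939-118478188 on the plus strand, that of Tbx18 at chr9:87731261-87731510 on the minus strand, that of Tbx20 at chr9:24774304-24774553 on the minus strand and that of Tbx1 at chr16:18590672-18590921 on the minus strand. Each is written 5′ to 3′ on the strand of its gene.
Eomes: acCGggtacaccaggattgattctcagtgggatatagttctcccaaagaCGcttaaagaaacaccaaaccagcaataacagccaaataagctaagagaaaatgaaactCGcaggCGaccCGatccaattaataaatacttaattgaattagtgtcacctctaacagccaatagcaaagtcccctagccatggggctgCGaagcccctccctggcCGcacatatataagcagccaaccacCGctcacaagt
Tbx18: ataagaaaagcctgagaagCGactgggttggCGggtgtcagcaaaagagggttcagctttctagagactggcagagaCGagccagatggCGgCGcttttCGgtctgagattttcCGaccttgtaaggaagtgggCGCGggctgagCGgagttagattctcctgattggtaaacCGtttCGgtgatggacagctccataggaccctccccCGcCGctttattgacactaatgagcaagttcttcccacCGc
Tbx20: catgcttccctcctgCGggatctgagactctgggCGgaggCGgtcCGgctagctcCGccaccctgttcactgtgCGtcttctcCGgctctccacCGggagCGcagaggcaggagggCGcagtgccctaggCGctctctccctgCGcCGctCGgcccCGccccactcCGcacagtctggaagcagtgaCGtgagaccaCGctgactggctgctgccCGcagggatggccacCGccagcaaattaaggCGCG
Tbx1: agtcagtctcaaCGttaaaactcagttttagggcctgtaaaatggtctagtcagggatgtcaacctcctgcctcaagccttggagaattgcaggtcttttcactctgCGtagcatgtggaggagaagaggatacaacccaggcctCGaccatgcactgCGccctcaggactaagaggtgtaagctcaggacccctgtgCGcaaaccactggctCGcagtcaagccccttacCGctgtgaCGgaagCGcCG

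The window of Tbx20 held 22 CG dinucleotides, that of Tbx18 held 15, that of T held 14, that of Tbx1 held 10 and that of Eomes held 8. The median was 6 over all 32851 RefSeq windows, 10 over the windows of protein-coding genes and 13 over the windows of genes whose start lay in a region that rose in Tie2 KO against Tie2 WT. At least as many CG dinucleotides as Tbx20 were present in 14.8% of all windows, and at least as many as Eomes in 43.0%. The 5 windows therefore all lay above the median of all windows but differed widely, and the Tbx1 window lay between those of Eomes and T. The windows of T, Eomes, Tbx18 and Tbx20, 4 of 5, lie inside a region that rose in Tie2 KO against Tie2 WT, and that of Tbx18 also inside one higher in Vav KO than in Tie2 WT. Of all 32851 windows, 1581 belonged to genes whose start lay in a region that rose in Tie2 KO against Tie2 WT. The T-box genes were chosen for having a listed region, so 4 of 5 cannot be set against that share. The T-box motif AGGTGTGA, searched on both strands, was found in none of the 5 windows and in 1.12% of all windows.

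**Figure D1:**
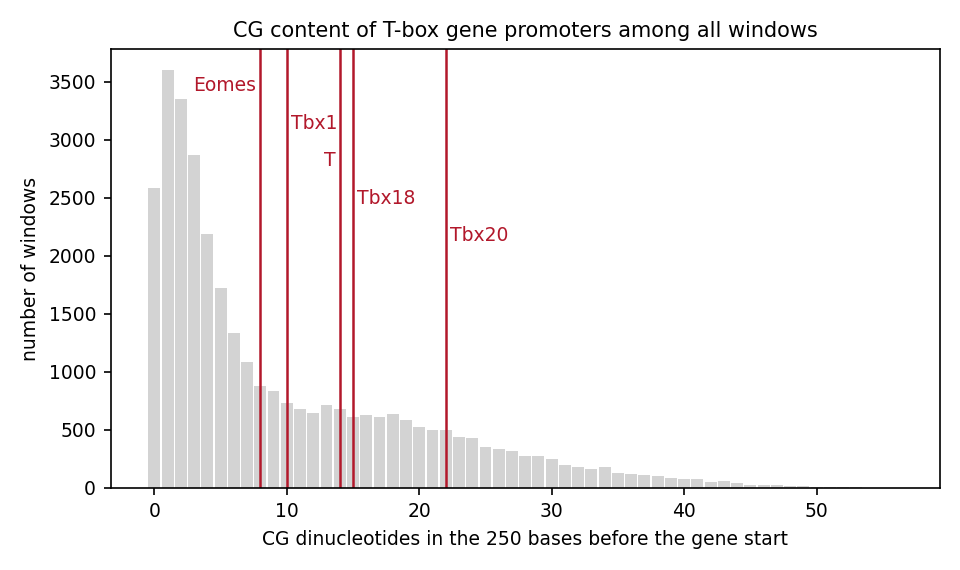
Number of RefSeq windows (vertical axis) by the count of CG dinucleotides in the 250 bases before the gene start (horizontal axis), with grey bars for all 32851 windows and red lines for the 5 T-box genes with a window. The lines run from 8 for Eomes to 22 for Tbx20, all above the median of 6.

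How chromatin differs once Ezh2 is deleted with the endothelial driver is the question of Tie2 KO against Tie2 WT. By the labels Tie2 KO carried the Cre transgene and Tie2 WT did not, so Cre and deletion cannot be told apart. Accessibility was higher at 11 of 17 T-box genes and lower at 0 of 17, while the share of all protein-coding genes was 11.5% for higher and 2.51% for lower. The 9 members near a higher region held 14 such regions, of which 9 covered the gene start, and T, Eomes, Tbx4 and Tbx18 had 1 region each while Tbx2, Tbx3, Tbx5, Tbx15 and Tbx20 had a second one upstream. The log2 fold changes ran from 0.75 to 2.34 with a median of 1.01, against a median of 1.02 over all 2959 higher regions. Among T-box genes outside the chosen set, Tbr1, a factor of cortical neurons, was higher over its start at a log2 fold change of 1.01 and Tbx21, the T-bet factor of lymphocytes, 770 bp upstream at 1.3 in the authors' deposited table. The typical size of the changes was thus close to that of the list as a whole, while the share of family genes near a higher region was 64.7%, above the 11.5% of all genes, in a family chosen with results known.

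**Figure D2:**
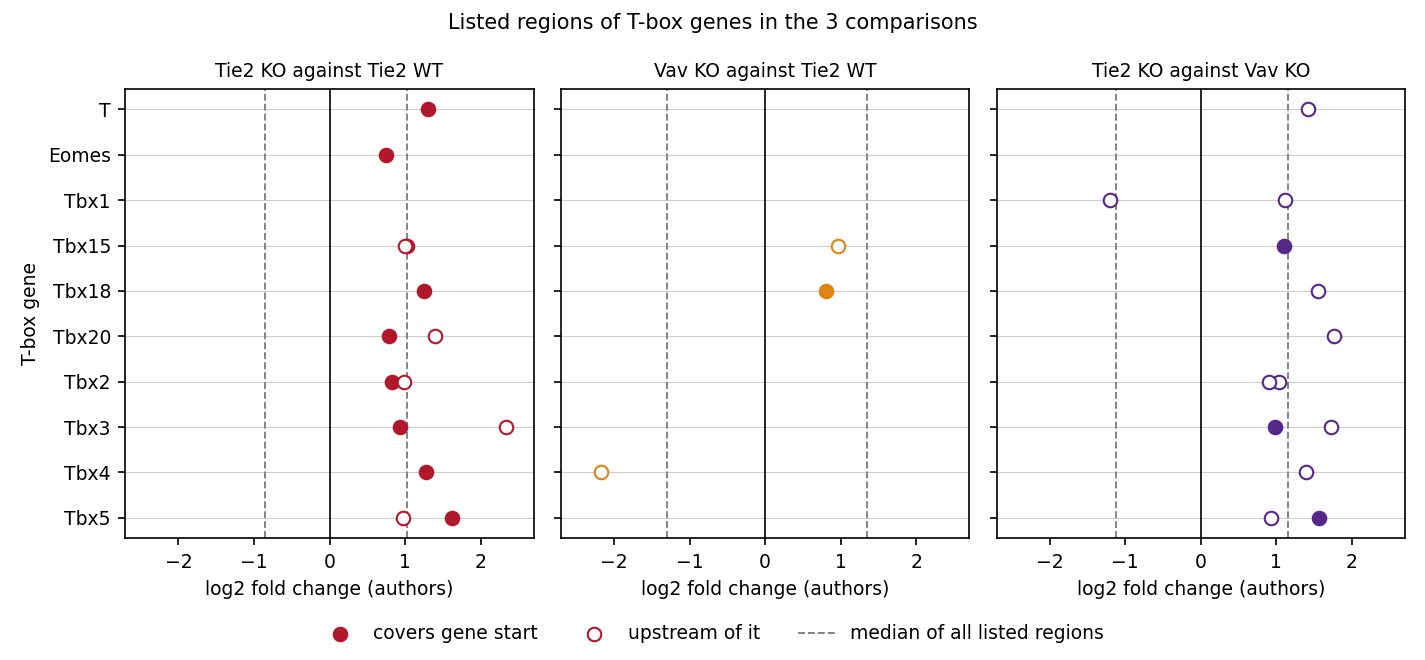
Log2 fold change given by the authors (horizontal axes) for each listed region of the 10 T-box genes (vertical axis), 1 panel for each comparison, with filled points for regions over the gene start and open points for regions upstream of it. Dashed lines are the medians of all higher and of all lower regions of that comparison, and the sole points below 0 are those of Tbx4 at -2.17 and Tbx1 at -1.2.

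T drives formation of posterior mesoderm and notochord, and Eomes acts in trophoblast and in early mesoderm and endoderm. The T region lay on chromosome 17 from 8433102 to 8434500 (mm10), with a log2 fold change of 1.3 and an adjusted p-value of 5.04e-06 in the authors' deposited table. Relative to the gene start, with minus for upstream, it reached from -1321 to 77 bp. The Eomes region, on chromosome 9 from 118476402 to 118479700, reached from -1787 to 1511 bp. Its log2 fold change in the authors' deposited table was 0.75, the smallest among the members' regions in this comparison, with an adjusted p-value of 7.63e-08. A small fold change and a small adjusted p-value thus went together there: Eomes ranked 2415 of 2959 by fold change and 220 by adjusted p-value.

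Tbx15, Tbx18 and Tbx20 belong to the subfamily of Tbx1 and act in skin and skeletal muscle, in the epicardium and sinus node, and in the heart chambers. Tbx18 rose over its start by a log2 fold change of 1.25 with an adjusted p-value of 5.36e-07 in the authors' deposited table, on chromosome 9 from 87730602 to 87734100. Tbx15 rose over its start, on chromosome 3 from 99252202 to 99256000, at 1.02 (adjusted p-value 6.31e-08), and from 99249502 to 99251100 at 1.00 (adjusted p-value 0.000487) in the authors' deposited table. The Tbx15 regions thus had nearly the same fold change, 1101 bp apart. Tbx20 rose over its start, on chromosome 9 from 24773102 to 24775400, at 0.79 (adjusted p-value 8.92e-08), and from 24776402 to 24778000, 2098 bp upstream, at 1.40 (adjusted p-value 1.14e-06) in the authors' deposited table. Tbx1, a factor of the pharyngeal arches and outflow tract, has no line in this comparison.

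Tbx2 and Tbx3 encode repressors that shape the cardiac conduction system, and Tbx4 and Tbx5 encode activators of hindlimb and forelimb growth, Tbx5 also of the heart. They form neighbouring pairs in the genome, Tbx2 with Tbx4 on chromosome 11, with starts 57.4 kb apart, and Tbx3 with Tbx5 on chromosome 5, with starts 163.8 kb apart, all 4 on the plus strand. The upstream Tbx3 region, from 119663702 to 119666400, had the largest change of any member here, with a rise of 2.34 on the log2 scale (adjusted p-value 4.26e-06) in the authors' deposited table, and ranked 17 of 2959. The region over the Tbx3 start, from 119667302 to 119673100, began 901 bp further on and rose by 0.93 in the authors' deposited table (adjusted p-value 5.59e-07). At 5799 bp it was the widest region of any member in this comparison and ranked 14 of 2959 by width.

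Tbx5 had the opposite order. Its start region, from 119833302 to 119836200, rose by a log2 fold change of 1.62 (adjusted p-value 1.01e-06) and its upstream region, from 119831802 to 119833000, by 0.97 (adjusted p-value 3.67e-05) in the authors' deposited table. Over Tbx2 the start region, from 85829702 to 85833400, rose by 0.83 (adjusted p-value 2.95e-07) and the region from 85827902 to 85829100, 3514 bp upstream, by 0.98 (adjusted p-value 2.13e-05) in the authors' deposited table. The Tbx4 region, from 85890002 to 85892800, rose by 1.28 (adjusted p-value 5.47e-08) in the authors' deposited table. It lay almost wholly inside the gene, from -61 to 2737 bp relative to the start.

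In the 5 members with both kinds of region the upstream one had the larger fold change in 3 (Tbx2, Tbx3, Tbx20) and the smaller in Tbx5 and Tbx15. The upstream change minus the start change was 1.41 on the log2 scale for Tbx3, 0.61 for Tbx20, 0.15 for Tbx2, -0.02 for Tbx15 and -0.65 for Tbx5. Over all 227 genes with 1 region of each kind the upstream one was larger in 66.1%, with a median difference of 0.22. The 9 regions over T-box starts had a median width of 3299 bp, against 1999 bp over all higher regions that cover a start, and 8 of the 9 were wider than that median. They made up 64.3% of the members' regions, against 55.6% of all higher regions.

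**Figure D3:**
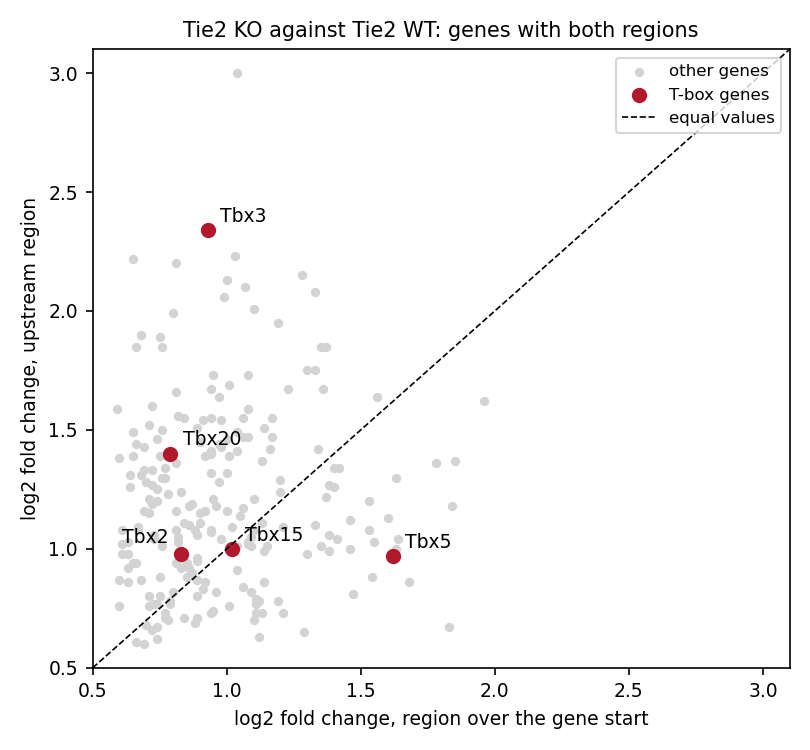
Log2 fold change of the region over the gene start (horizontal axis) and of the upstream region (vertical axis) in Tie2 KO against Tie2 WT, for the 227 genes with 1 of each, the 5 T-box genes in red. Tbx3 stands far above the dashed line of equal values, at 0.93 and 2.34, and Tbx5 below it, at 1.62 and 0.97.

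Vav KO against Tie2 WT puts the same question for the blood driver. Accessibility was higher at 3 of 17 T-box genes, Tbx15, Tbx18 and Mga, and lower at 1 of 17, Tbx4, while the share of all protein-coding genes was 5.29% for higher and 2.59% for lower. These small counts leave most of the family with no line here, which does not show that their chromatin stayed the same. Both this comparison and the previous one use the same Tie2 WT samples, so values that agree between them are no repeat.

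The Tbx18 region, from 87730602 to 87732200, covered the start and the promoter window shown above and rose by a log2 fold change of 0.81 (adjusted p-value 2.4e-05) in the authors' deposited table. It begins at the same base as the Tbx18 region of the Tie2 comparison and is 1599 bp long, against 3499 bp. Tbx15 rose from 99249702 to 99250700, inside the upstream Tbx15 region of the Tie2 comparison, by 0.96 (adjusted p-value 0.000853) in the authors' deposited table. For Tbx15 the values of both knockouts against Tie2 WT were 1.00 in Tie2 KO and 0.96 in Vav KO in the authors' deposited table, and for Tbx18 they were 1.25 and 0.81 in the same order of groups. Mga, a partner of Max that carries a T-box, rose 850 bp upstream of its start by 2.32 (adjusted p-value 3.34e-06) in the authors' deposited table.

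Tbx4 went the other way. From 85887402 to 85888400, 1662 bp upstream of its start, accessibility fell by 2.17 on the log2 scale in Vav KO (adjusted p-value 2.82e-06) in the authors' deposited table, rank 53 of 630 lower regions. The Tbx4 region that rose in Tie2 KO lies 1601 bp away from it. A further lower region, from 85832902 to 85833900, lies inside the Tbx2 gene, starting 287 bp after its start, but the lists pair it with 2610027K06Rik, whose start is on the opposite strand beside that of Tbx2 and which shares the Tbx2 start region of the Tie2 comparison. Its log2 fold change was -0.77 with an adjusted p-value of 0.00109 in the authors' deposited table. Counted by the span of the gene and 5 kb upstream, a choice made after seeing the data, 2 and not 1 of the T-box genes had a lower region in this comparison. The share of all genes counted that way is not given here.

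Where the knockouts differ from each other is the question of Tie2 KO against Vav KO. Accessibility was higher in Tie2 KO at 10 of 17 T-box genes, against 11.1% of all protein-coding genes, and lower at 1 of 17, Tbx1, against 6.35%. The members' 12 higher regions had log2 fold changes from 0.90 to 1.76 with a median of 1.25, against 1.16 over all 2873 higher regions. Only 3 of the 12, at Tbx3, Tbx5 and Tbx15, covered the gene start, 25.0% against 43.8% of all higher regions. Within 1 kb of the start, the count of T-box genes with a higher region was 5 and not 10. The share of all protein-coding genes within that distance is not given here, and 11.1% holds for regions at any listed distance. Tbx21, outside the chosen set, was higher 670 bp upstream at 1.46 (adjusted p-value 1.96e-06) in the authors' deposited table.

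Tbx3 was again higher both over its start, from 119666602 to 119673100, at 0.98 (adjusted p-value 1.45e-06), and upstream, from 119664902 to 119666200, at 1.72 (adjusted p-value 7.81e-05) in the authors' deposited table. At 6499 bp the start region ranked 5 of 2873 by width. Tbx5 was higher at 1.56 over its start, from 119833302 to 119836400 (adjusted p-value 4e-06), and at 0.93 from 119831902 to 119832900 (adjusted p-value 0.00100) in the authors' deposited table. The order of the Tbx3 and of the Tbx5 regions was therefore that seen against Tie2 WT, from the same Tie2 KO samples. Tbx15 was higher over its start, from 99252302 to 99255000, at 1.10 (adjusted p-value 8.76e-07) in the authors' deposited table.

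At T, Tbx18, Tbx20 and Tbx4 every region listed as higher in Tie2 KO than in Vav KO lay upstream of the start, and Eomes has no line in this comparison. The largest change of any of the 10 genes here was that of Tbx20, at 1.76 from 24775502 to 24778900 (adjusted p-value 6.97e-06) in the authors' deposited table. Tbx18 was higher at 1.55 from 87732402 to 87734300 (adjusted p-value 4.9e-05) in the authors' deposited table, 201 bp beyond the Tbx18 region that rose in Vav KO. So along the 3499 bp Tbx18 region that rose in Tie2 KO, the part over the start was also listed as higher in Vav KO, and the part further upstream was listed as higher in Tie2 KO than in Vav KO. T was higher at 1.42 from 8429502 to 8430600 (adjusted p-value 5.91e-05) in the authors' deposited table, 2501 bp away from the T region called against Tie2 WT. Tbx2 was higher at 0.90 from 85830202 to 85832200 (adjusted p-value 7.29e-06) and at 1.03 from 85828302 to 85829500 (adjusted p-value 2.08e-05) in the authors' deposited table.

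The Tbx4 region that fell in Vav KO overlaps one called here, from 85887302 to 85888500, at 1.39 higher in Tie2 KO (adjusted p-value 0.000256) in the authors' deposited table. No Tbx4 region at this place was listed for Tie2 KO against Tie2 WT. Inside Tbx2, regions paired with 2610027K06Rik were higher in Tie2 KO at 0.97 from 85832902 to 85834000 and at 1.11 from 85836802 to 85841200 in the authors' deposited table. A region overlapping the wider of these, from 85837102 to 85839000, also rose in Tie2 KO against Tie2 WT, at 0.92 in the authors' deposited table.

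Tbx1 was the only member with regions in opposite directions within a comparison. From 18592002 to 18593000 it was higher in Tie2 KO at 1.11 (adjusted p-value 0.000147), and from 18592802 to 18593800 it was lower at -1.2 (adjusted p-value 1.89e-05) in the authors' deposited table. These regions, on chromosome 16, lie 1330 and 2130 bp upstream of the gene start and share 199 bp. Neither reaches the Tbx1 promoter window shown above, and neither place has a Tbx1 line in the comparisons with Tie2 WT.

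**Figure D4:**
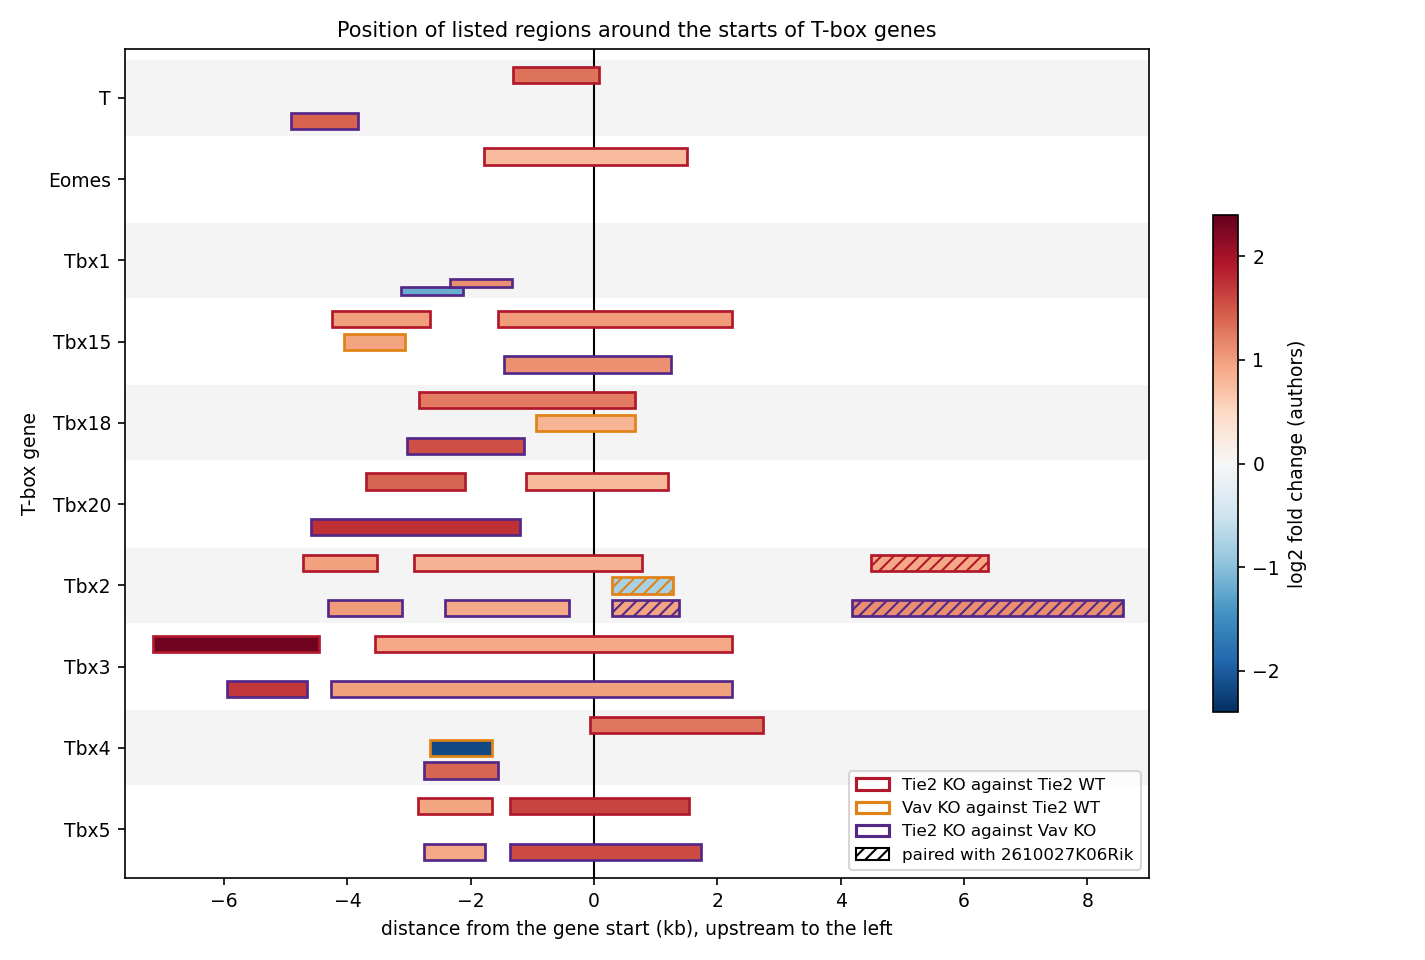
Listed regions drawn to scale by distance from the gene start in kb (horizontal axis) for each T-box gene (vertical axis), with the outline giving the comparison, the fill the authors' log2 fold change and hatching the regions paired with 2610027K06Rik. Regions higher in Tie2 KO cover 9 gene starts in the comparison with Tie2 WT and 3 in that with Vav KO, and the blue fills mark Tbx4, Tbx1 and the inside of Tbx2.

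Of the 14 regions that rose in Tie2 KO against Tie2 WT, 9 overlapped a region higher in Tie2 KO than in Vav KO, at Tbx2, Tbx3, Tbx5, Tbx15, Tbx18 and Tbx20. The other 5 were the start regions of T, Eomes, Tbx4 and Tbx20 and the upstream region of Tbx15. These comparisons share the Tie2 KO samples, so overlap can arise at any gene. The same share over all 2959 higher regions is not given here, so the count of 9 is no result about T-box genes. Over all 3 comparisons, Tbx4, Tbx15 and Tbx18 had lines in each. A further 5 members had lines only in both comparisons with Tie2 KO, and Eomes and Tbx1 had lines in 1.

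Genes that work with T-box factors were taken from lists of partners, targets, inducers and other limb and heart regulators. Beside the counts of each list in Tie2 KO against Tie2 WT stand the shares of all protein-coding genes, 11.5% higher and 2.51% lower. Of 16 partners, 6 (37.5%) were near a higher region, with 0 lower, led by Pax3 at 1.71, Hand1 at 1.59, Gata4 at 1.41 and Gata5 at 1.38 in the authors' deposited table. The GATA and Hand factors act beside Tbx5 and Tbx20 in the heart. Of 22 genes described as T-box targets, 12 (54.5%) were near a higher region, with 0 lower, among them Lhx1 at 1.51, Wnt3a at 1.41 and Bmp2 at 1.31 in the authors' deposited table. Wnt3a and Bmp2 are secreted signals. Of 13 limb and heart regulators, 9 (69.2%) were near a higher region, with 0 lower, among them Hey2 at 1.71, Tcf21 at 1.62 and Sall1 at 1.51 in the authors' deposited table.

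Of 13 inducers, 4 (30.8%, against 11.5% of all protein-coding genes) were near a higher region, Lef1 at 1.64, Foxc1 at 0.94, Wnt3 at 0.81 and Wnt2b at 0.62 in the authors' deposited table, and Gdf3, named after its value was seen, was lower at -0.59. The median log2 fold change of the higher regions was 1.19 for partners, 1.00 for targets, 1.19 for limb and heart regulators and 0.88 for inducers, against 1.02 over all higher regions. In Vav KO against Tie2 WT, where 5.29% of all protein-coding genes were higher and 2.59% lower, 1 of 16 partners was near a higher region, with 0 lower, and the same counts were 1 and 1 of 22 targets, 2 and 0 of 13 limb and heart regulators and 3 and 0 of 13 inducers. The shares that were higher, 6.25% of partners and 4.55% of targets, were near that of all genes. Those of limb and heart regulators, 15.4%, and of inducers, 23.1%, were above it, from 2 and 3 genes. Those named there were Gata6 at 1.22, Mesp1 at 0.96, Foxa2 at -1.53, Tcf21 at 1.92, Meis2 at 0.79, Foxc2 at 1.13, Foxc1 at 0.95 and Wnt3 at 0.81 in the authors' deposited table.

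In Tie2 KO against Vav KO, where 11.1% of all protein-coding genes were higher and 6.35% lower, 8 of 16 partners were higher and 0 lower, and the same counts were 14 and 2 of 22 targets, 8 and 0 of 13 limb and heart regulators and 6 and 2 of 13 inducers. The partners with the largest changes in the authors' deposited table were Hand1 at 2.3, Sall4 at 2.1, Pax3 at 1.45 and Gata5 at 1.38. Among limb and heart regulators they were Tcf21 at 2.09, Hey2 at 1.84, Wt1 at 1.72 and Pitx1 at 1.41 in the authors' deposited table. Among inducers they were Lef1 at 2.2, Foxc1 at 1.43, Foxc2 at -1.2 and Fgf2 at 1.14 in the authors' deposited table. Targets with large changes included Dll1, a Notch ligand of the presomitic mesoderm, at 1.7, Wnt3a at 1.54 and Msgn1, a mesoderm factor, at 1.43 in the authors' deposited table. Cdkn2a, named after its values were seen, had a lower one at -1.05 and a higher one at 1.09 in the authors' deposited table.

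Markers of other cell types were also listed. Hand1 is counted among the partners above as well and Foxa2 among the targets, so these counts are not independent of those. In Tie2 KO against Tie2 WT, with 11.5% of all protein-coding genes higher and 2.51% lower, 3 of 5 yolk sac mesoderm markers were higher and 0 lower, led by Hand1 at 1.59 in the authors' deposited table. Of 5 endothelial markers Tek at 2.90 and Cdh5 at 0.84 were higher and Pecam1 at -0.77 lower, and of 5 endoderm markers Foxa2 was higher at 0.82 in the authors' deposited table. Regulatory sequence of Tek is also part of the Tie2-Cre transgene, so at Tek the gene and the transgene cannot be told apart. Of 11 progenitor markers 0 were listed in that comparison. In Vav KO against Tie2 WT, with 5.29% of all genes higher and 2.59% lower, Pdgfra at -1.57, Foxa2 at -1.53 and Gata2 at -1.55 were lower, Csf1r at 0.92 was higher, and 0 of 5 endothelial markers were listed in the authors' deposited table. In Tie2 KO against Vav KO, with 11.1% of all genes higher and 6.35% lower, 2 of 5 markers of mesoderm, of endothelium and of endoderm each were higher and 0 lower, and of 11 progenitor markers Gata2 was higher at 0.92 and Csf1r lower at -1.33 in the authors' deposited table. Their part in the results for T-box genes was not tested, and whether a cell type was present cannot be read from lists of differing regions.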

How the data were processed

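ATAC-seq of 14 samples in 4 groups was deposited as 6 lists of regions, with higher and lower regions apart for 3 comparisons. Group abbreviations in the list names were read as Tie2 KO, Vav KO and Tie2 WT. Per the submitters' processing notes the build was mm10. Tools named there without a role are MACS2 2.1.2, Bowtie2, HOMER 4.10, SAMtools 1.3.1, FastQC and Picard. For peak calling, pooling, scaling, Tn5 shifting and the test, the steps taken were not given in the sources used here, and each can move a fold change. Per the file headers, each region has the authors' log2 fold change and adjusted p-value. The authors also deposited its width and its distance to the gene start, both in bp (another kind of measure). Every listed adjusted p-value was at most 0.0479 and every absolute log2 fold change at least 0.58.

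Lines were counted with pandas 2.3.3 under Python 3.11.15. A gene counts as near a region that the authors paired with it. Shares of protein-coding genes use 21896 genes of the RefSeq table of GRCm38.p6, in which all 10 T-box genes were matched by identifier. No test over samples was possible, so no p-value was computed. Regions overlap where they share at least 1 bp. The counting of overlaps was tested on simulated data. The genes named were all of the T-box family, genes paired with the same region, and from each other list up to 4 genes with the largest fold change in a comparison, of which a few are not reported here. T-box genes and lists were chosen with earlier results of these data known. The classes exon, intron and UTR were not assigned.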

Additional observations from a re-analysis of the deposited data

Results flagged for a closer look

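The authors' direct comparison of the knockouts bears on whether their changes from Tie2 WT differ, since the control is the same in both. It called 10 regions of the 10 genes listed at the outset that overlap a region called in Tie2 KO or in Vav KO against Tie2 WT, all higher in Tie2 KO. In the authors' deposited table the log2 fold changes over the gene start were 1.56 at Tbx5, 1.1 at Tbx15 and 0.98 at Tbx3. Upstream they were 1.76 at Tbx20, 1.72 at Tbx3, 1.55 at Tbx18, 1.39 at Tbx4, 1.03 and 0.9 at Tbx2 and 0.93 at Tbx5 in the authors' deposited table. At Tbx4 the value goes with a fall in Vav KO, and at the other genes with a rise in Tie2 KO. Most of these regions overlap one called as higher in the same Tie2 KO samples, so their shared direction follows largely from that choice. Left out by it were T at 1.42 and Tbx1 at 1.11, both higher, and Tbx1 at -1.2, lower, in the authors' deposited table. The same count over all listed regions is not given here. The Vav KO samples come from the other Cre line than the Tie2 WT samples, and the part of the Cre line in these differences cannot be told apart from that of the genotype.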

How the results depend on the processing

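Higher and lower regions were listed apart, so no alternative could reverse a direction. Shares of all genes under the alternatives are not given here. Of 53 alternative values of the 11 results, 42 were labelled as unchanged. The range was 1.5 times the count or the exact 95% interval of the median or share. The median in Vav KO against Tie2 WT came from 2 regions, too few for such an interval, so its alternatives were not judged by one. With regions paired with a single gene only, every count of T-box genes near a higher or lower region stayed the same. With an adjusted p-value of at most 0.01 no value could move, since the largest of the authors' adjusted p-values at a T-box region was 0.00100. The count of overlapping regions was not run with single-gene regions. With an absolute log2 fold change of at least 1, the T-box genes higher in Vav KO against Tie2 WT numbered 1 in place of 3. With regions over the start or within 1 kb of it, T-box genes numbered 5 in place of 10 for higher in Tie2 KO against Vav KO, 0 in place of 1 for lower there and 0 in place of 1 for lower in Vav KO against Tie2 WT, where the median log2 fold change was 0.81 in place of 0.89. With regions of the smallest width, 999 bp, higher T-box genes numbered 0 in place of 11 in Tie2 KO against Tie2 WT, 1 in place of 3 in Vav KO against Tie2 WT and 2 in place of 10 in Tie2 KO against Vav KO. With regions under 2 kb wide the share over the gene start was 20.0% in place of 64.3%, and at the smallest width no region was left for it. With any region in the span of a gene or 5 kb upstream, added after seeing the data, lower T-box genes in Vav KO against Tie2 WT numbered 2 in place of 1. No region had an identical start and end in the comparisons with Tie2 KO on one side, 0 in place of 9 overlaps. The lists hold no sample values, so leaving out a replicate could not be run. No paired analysis was possible because the lists hold no sample values and the groups compared share no replicate number.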
